A study of Mus musculus with 4 samples.

Results

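Serpins are protease inhibitors that work as a molecular trap. An exposed stretch of the protein, the reactive centre loop, is offered to a protease as bait, and cleavage of the loop makes the serpin refold and lock the protease in an inactive complex. Secreted clade A serpins and C1 inhibitor act in plasma and tissue fluid on neutrophil, mast cell and complement proteases, while most clade B serpins stay inside epithelial and immune cells. In skin, they limit the proteases of infiltrating leukocytes and of the cornifying epidermis.

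The 9 serpin genes described are Serpina3n, Serpina3k and Serpina3g on mouse chromosome 12, Serpinb2, Serpinb3d and Serpinb5 on chromosome 1, Serping1 on chromosome 2, and Serpinb6a and Serpinb9 on chromosome 13. They were taken by name from 55335 annotated genes, 68 of which have a Serpin symbol. They were chosen by name with their measured counts and genotype differences in these libraries already known, so their values below are a description and carry no test. Together they held 70055 of 16821693 counted fragments (0.416%), and the 59 other serpin genes held 8673.

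The RNA came from dermal cell suspensions, stained for CD4 and CD45, of mice aged 8 to 12 weeks whose backs received imiquimod, an agonist of Toll-like receptor 7 that causes psoriasis-like inflammation, as a 5% cream for 5 days. Controls (Mettl3fl/fl) carried floxed alleles of Mettl3, the catalytic subunit of the RNA N6-methyladenosine writer, and knockouts (Mettl3fl/fl;Cd4-Cre) carried the same alleles with Cre recombinase driven from Cd4, a gene that is active in developing T cells, so the deletion is aimed at T-lineage cells. Both genotypes had 2 libraries, numbered only to name them. All mice received imiquimod (15 or 62.5 mg of cream daily, with the amount per mouse not stated), and strain, sex and the number of mice per library are not stated either.

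The libraries held 3614418 to 4537006 counted fragments and were labelled as CD4+ T cells, but T cell markers were a small part of these fragments. How much of each marker's exons could be counted was not worked out, so marker sums of different cell types compare only roughly. The 12 T cell markers summed to 1018, 314.4, 301.5 and 146.3 CPM (counts scaled to a common library size with TMM factors, the unit of all levels here) in control 1, control 2, knockout 1 and knockout 2, led by Trac at 197.8, 73.1, 34.9 and 25.5. The 12 macrophage and monocyte markers summed to 17800, 8749, 27880 and 25880 CPM, and the 10 fibroblast markers to 12430, 2895, 5784 and 5971 CPM, led by Mmp2. Summed keratinocyte markers, 12 genes, reached 24970 CPM in control 2 and 1110 to 2463 CPM elsewhere. Control 2 stood apart in other ways too, with no fragment for 4064 of the 12434 genes tested, against 221 to 860 elsewhere, and with none of Cd4, which had 777, 0, 420 and 9 fragments in the same order. In bulk RNA, fewer cells of a type and less RNA per cell cannot be told apart. Mettl3 had 195, 49, 121 and 158 fragments in the same order, with both knockouts between the controls, and the labels do not say which exons the floxed alleles lose, so these counts do not check the labels.

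What sets close serpin relatives apart is the loop. The loops of Serpina3n and close relatives in its cluster are shown here as coding DNA of GENCODE M21 on GRCm38. The windows run from the conserved hinge before the loop to the conserved phenylalanine after it. Each window lies in the last coding exon of its gene. The windows are chr12:104413442-104413537 (plus strand) for Serpina3n, chr12:104345263-104345352 (plus) for Serpina3k, chr12:104241066-104241161 (plus) for Serpina3g and chr12:104147307-104147393 (minus) for Serpina3c, a neighbour outside the 9. Capitals mark bases that do not match Serpina3n in a pairwise alignment, and gaps are not drawn.
Serpina3n: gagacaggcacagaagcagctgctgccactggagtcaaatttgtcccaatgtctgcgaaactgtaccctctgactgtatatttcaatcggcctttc
Serpina3k: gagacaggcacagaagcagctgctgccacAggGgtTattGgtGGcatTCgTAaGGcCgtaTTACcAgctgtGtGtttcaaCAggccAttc
Serpina3g: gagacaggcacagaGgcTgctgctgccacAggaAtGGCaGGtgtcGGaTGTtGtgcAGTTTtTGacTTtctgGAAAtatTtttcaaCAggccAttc
Serpina3c: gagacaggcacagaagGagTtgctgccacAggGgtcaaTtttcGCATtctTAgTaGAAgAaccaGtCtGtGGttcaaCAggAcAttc

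The hinge was shared and the loop was not. The first 29 bases of the Serpina3k window equalled those of Serpina3n, and the first 14 of Serpina3g did. Over the window 74.4% of the bases of Serpina3k, 66.7% of Serpina3g and 71.3% of Serpina3c matched Serpina3n. Over the aligned coding sequence the identity was higher, at 83.5%, 84.7% and 85.9%. The longest run of identical bases that the Serpina3n transcript shares with these relatives was 39 for Serpina3k, 100 for Serpina3g and 69 for Serpina3c. Fragments that map to several places were not counted, so levels within the Serpina3 cluster are uncertain where such runs exceed the read length, which the labels do not state.

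The same comparison for the epidermal pair Serpinb3d, at chr1:107078259-107078351 (minus strand), and its neighbour Serpinb3c, at chr1:107271695-107271784 (minus), is shown because both were high in the same library. Capitals mark bases that do not match Serpinb3d.
Serpinb3d: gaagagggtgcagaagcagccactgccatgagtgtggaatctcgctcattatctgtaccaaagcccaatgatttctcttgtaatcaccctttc
Serpinb3c: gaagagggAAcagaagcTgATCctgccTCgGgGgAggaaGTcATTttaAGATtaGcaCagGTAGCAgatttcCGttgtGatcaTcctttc
In this pair 64.4% of the Serpinb3c window matched, against 86.4% of the aligned coding sequence, and the longest shared run was 60 bases.

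Serpina3n, a secreted acute-phase inhibitor, had the most counted serpin fragments by far, at 70.4% to 76.3% in each library. All of its exon bases could be counted, against 38.5% for Serping1 and 5.65% for Serpinh1. Fragments that span exons were not counted in any gene. The share thus depends in part on what could be counted. Serpina3n fragments numbered 18906, 14503, 8361 and 16575 in control 1, control 2, knockout 1 and knockout 2, which are 4127, 3828, 2087 and 3918 CPM. Knockout 2 lay between the controls, and knockout 1 alone was low. Controls averaged 3978 ± 211.2 CPM and knockouts 3003 ± 1295 CPM (SD, n = 2 each). Knockout against control gave a log2 fold change of -0.41 ± 0.52 by edgeR, and 0.02 without knockout 1, so its direction rested on that library. The value after ± of a log2 fold change, here and below, is a standard error derived from edgeR's test statistic.

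Every exon of Serpina3n could be counted, since the gene has a single annotated transcript. Its exons 2 to 5 held fragments in the same order of abundance in all libraries. The last exon held 55.4%, 57.2%, 48.9% and 60.1% of the gene's fragments in control 1, control 2, knockout 1 and knockout 2. Exon 2 held 27.1%, 23.2%, 34.6% and 23.8%. Knockout 1 thus had relatively more fragments toward the 5′ end and fewer in the last exon.

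Serpina3c, a neighbour of Serpina3n in the cluster, ran in parallel with it. Its levels were 139.3, 157.6, 77.1 and 166.7 CPM in control 1, control 2, knockout 1 and knockout 2. Its fragments were 3.38%, 4.12%, 3.70% and 4.25% of those of Serpina3n. Knockout 1 was again the lowest library.

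Serpina3g, also called Spi2A, is an intracellular inhibitor of lysosomal cathepsins that is known from activated lymphocytes and myeloid cells, and it was highest in knockout 2 and lowest in control 2. It had 983, 318, 704 and 1173 fragments in control 1, control 2, knockout 1 and knockout 2, or 214.6, 83.9, 175.7 and 277.3 CPM. Control 1 lay between the knockouts, so the groups overlapped. Controls averaged 149.3 ± 92.4 CPM and knockouts 226.5 ± 71.8 CPM (SD, n = 2 each). The log2 fold change, 0.60 ± 0.73, moved to 0.07 when control 2 was left out, to 0.28 for knockout 2 and to 1.5 for control 1. As a share of Serpina3n fragments it made 5.20%, 2.19%, 8.42% and 7.08% in the same order, so the cluster neighbours did not keep a fixed proportion.

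Control 2 also lacked a Serpina3g exon that the other libraries had. The exon before the last (chromosome 12, 104240247 to 104240397) took 10.2% of the gene's 983 fragments in control 1 (95% Clopper-Pearson bounds 8.35 and 12.2), 10.8% of 704 in knockout 1 (8.60 and 13.3) and 8.01% of 1173 in knockout 2 (6.52 and 9.72). In control 2 it held 0 of 318, which allows a share of up to 0.943% (3 fragments) or, by the same bounds as the others, 1.15%, and all 318 lay in the last exon. These intervals cover counting error only, since amplified fragments are not independent molecules.

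The 250 bases upstream of the annotated starts of Serpina3n (chr12:104406458-104406707, plus strand) and Serpina3g (chr12:104235897-104236146, plus strand) are shown because the neighbours were both present in every library and differed in which library was lowest. They come from RefSeq on GRCm38.p6, where 7 of the 9 genes matched an entry. Capitals mark a match to TTCNNNGAA, the palindromic core that STAT factors recognise.
Serpina3n: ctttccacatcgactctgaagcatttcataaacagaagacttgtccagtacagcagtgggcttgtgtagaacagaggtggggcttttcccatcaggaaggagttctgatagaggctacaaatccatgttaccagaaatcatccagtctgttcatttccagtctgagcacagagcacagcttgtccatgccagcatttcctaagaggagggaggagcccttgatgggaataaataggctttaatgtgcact
Serpina3g: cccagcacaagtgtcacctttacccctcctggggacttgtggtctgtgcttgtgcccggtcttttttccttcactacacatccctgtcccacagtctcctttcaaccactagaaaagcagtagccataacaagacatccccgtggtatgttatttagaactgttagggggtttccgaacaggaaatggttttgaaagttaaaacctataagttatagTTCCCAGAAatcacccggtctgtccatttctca
The match in Serpina3g began 33 bases before the start, and these letters were not in the Serpina3n window. Of 32851 RefSeq upstream windows of the same length, 7.02% held this motif. Among the other windows of the 9 genes, 1 of the 2 for Serpinb2 and 1 of the 2 for Serpinb6a held it. A match is a description of the letters and not of binding.

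Serpina3k, a plasma serpin made mostly by liver and known to bind tissue kallikrein, came almost entirely from a single library. It had 1, 0, 17 and 494 fragments in control 1, control 2, knockout 1 and knockout 2, or 0.218, 0, 4.24 and 116.8 CPM. Both knockouts lay above both controls, but knockout 2 was 27.5 times knockout 1 (exact 95% counting interval 17 to 47.6). Pooled over libraries, the ratio of knockouts to controls was 519.2 with a counting interval of 92.8 to 20550, an interval that covers counting error only and says nothing of the spread between mice. The fitted log2 fold change was 8.70 ± 2.54, a value that depends on how the near-absence in controls is treated, and it was 4.94 without knockout 2.

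The Serpina3k signal in knockout 2 ran over the whole counted transcript. Its exons 2 to 5 held 154, 50, 38 and 252 fragments there, and the first exon, which it shares with Serpina3m, could not be counted. In knockout 1, exons 2 and 5 held 11 and 6 fragments. Relative to Serpina3n, Serpina3k fragments were 0.00529%, 0%, 0.203% and 2.98% in the same order, although Serpina3n itself was at 4127 CPM in control 1 and 3918 in knockout 2. Serpina3m, the closest of the 5 relatives compared with it (91.8% coding identity, longest shared run 154 bases), had 2, 0, 2 and 1 fragments in the same order, but only 61 of its exon bases could be counted, against 1997 for Serpina3k.

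**Figure D1:**
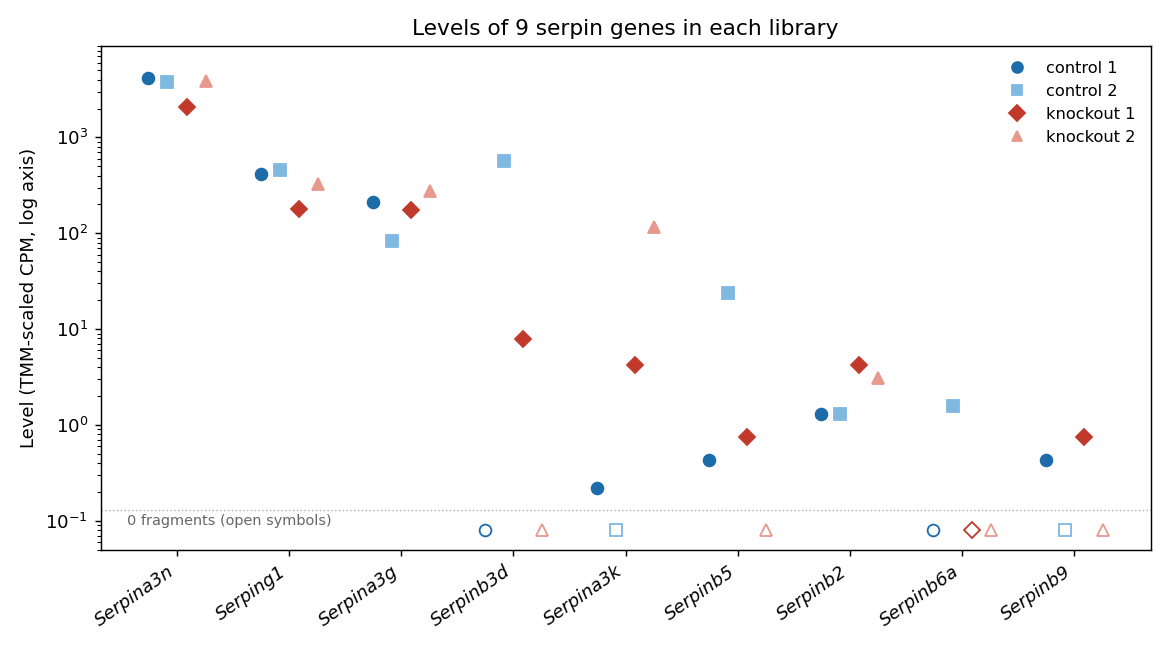
Level of each of the 9 serpin genes in TMM-scaled CPM (log axis) in the 2 control and 2 knockout libraries, with genes ordered by mean level and open symbols for 0 fragments. Serpina3n, Serping1 and Serpina3g were present in every library, whereas Serpinb3d was at 564.6 CPM in control 2 and at 0 to 7.99 elsewhere, and Serpina3k at 116.8 CPM in knockout 2 and at 0 to 4.24 elsewhere.

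Serping1 encodes C1 inhibitor, which blocks the complement proteases C1r and C1s and plasma kallikrein, and it was lower in both knockouts than in both controls. It had 1889 and 1718 fragments in control 1 and control 2, and 711 and 1383 in knockout 1 and knockout 2, or 412.4, 453.5, 177.5 and 326.9 CPM. The groups did not overlap, as was so in this direction for 11.2% of the 12434 genes tested. Controls averaged 432.9 ± 29.1 CPM and knockouts 252.2 ± 105.7 CPM (SD, n = 2 each), and the log2 fold change was -0.78 ± 0.58. It was -0.36 without knockout 1 and -1.21 without knockout 2, and it was negative in all 13 alternatives tried.

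Serping1 was read mainly from a 220-base exon (chromosome 2, 84767275 to 84767494) that held 75.9% to 85.2% of its fragments in each library. The last exon (84765387 to 84765827) held 15.7%, 24.1%, 14.8% and 16.3% in control 1, control 2, knockout 1 and knockout 2. Of its 17 exon entries, 9 share coordinates with another transcript and held nothing, so 38.5% of its exon bases could be counted. Its fragments were 9.99%, 11.8%, 8.50% and 8.34% of those of Serpina3n in the same order of libraries.

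Among the targets of C1 inhibitor, C1ra, the protease C1r, followed the same direction. It was at 563.4, 423.1, 223.9 and 398.8 CPM in control 1, control 2, knockout 1 and knockout 2, and fragments of Serping1 per fragment of C1ra were 0.732, 1.07, 0.793 and 0.820. C1s1, the protease C1s, had 48, 0, 10 and 8 fragments. Masp1, a lectin-pathway protease, was at 687.2, 311.7, 237.1 and 596.0 CPM, with overlapping groups. C1ra and C1s1 have close copies in the mouse genome, so their counts are uncertain. Fibroblast markers were 12430, 2895, 5784 and 5971 CPM in the same libraries, and their part in the Serping1 values was not tested.

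**Figure D2:**
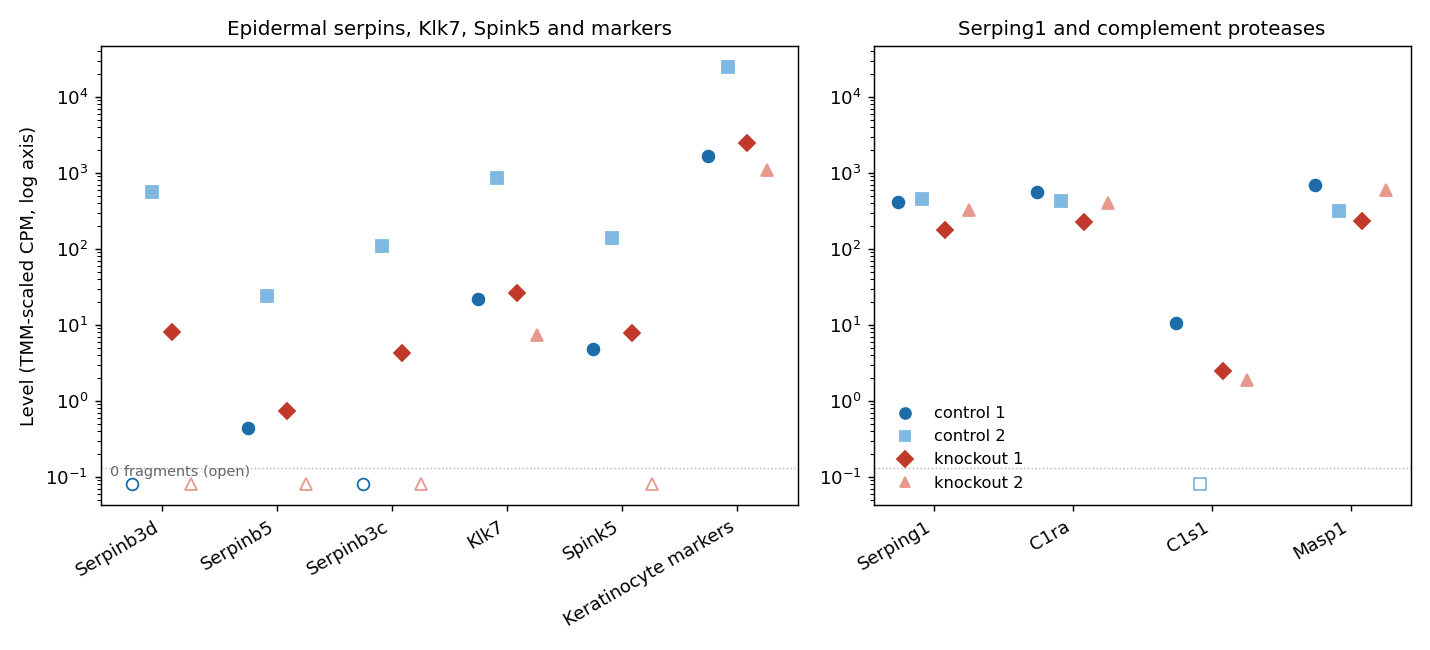
Levels in TMM-scaled CPM (log axis) per library of 3 epidermal serpins, Klk7, Spink5 and the summed keratinocyte markers (left), and of Serping1 with 3 complement proteases (right), with open symbols for 0 fragments. Control 2 was highest for every gene on the left, while Serping1 and C1ra were highest in the controls and lowest in knockout 1.

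Serpinb3d belongs to the mouse relatives of the human squamous cell carcinoma antigens, epidermal inhibitors that block cathepsins or serine proteases, and it was almost confined to control 2. It had 0, 2139, 32 and 0 fragments in control 1, control 2, knockout 1 and knockout 2, or 0, 564.6, 7.99 and 0 CPM. Control 2 was 70.7 times knockout 1 (exact 95% counting interval 49.9 to 103.6), and the other control held none. The groups overlapped, since knockout 1 lay above control 1. The log2 fold change of -6.14 ± 3.56 rested on that library, and without control 2 it turned to 7.10.

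All 7 exons of Serpinb3d held fragments in control 2, from 33 in the 57-base exon to 1362 in the last. The last exon made up 63.7% of its fragments in control 2 and 62.5% in knockout 1. The gene has a single annotated transcript, so all of its 1216 exon bases could be counted. Of the other Serpinb genes on chromosome 1, some were high in the same library, with Serpinb3c at 0, 411, 17 and 0 fragments and Serpinb12 at 0, 39.9, 2.25 and 0 CPM, nearly all of it in a retained intron, in control 1, control 2, knockout 1 and knockout 2. Serpinb8 and Serpinb10, further along the chromosome, were instead at 0 in control 2, with 46, 0, 84 and 85 fragments and 15, 0, 1 and 0. Serpinb3a and Serpinb3b had no counted fragment, but only 31 and 56 of their exon bases could be counted. Y-linked genes had 76, 1, 0 and 118 fragments and Xist 1858, 8909, 5442 and 20 in control 1, control 2, knockout 1 and knockout 2, so the libraries with Serpinb3d fragments were also those with at most 1 Y-linked fragment. With a covariate for Y-linked fragments in the fit, the log2 fold change of Serpinb3d was -5.89.

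Serpinb5, maspin, is an epithelial serpin that does not inhibit proteases, and it too was found chiefly in control 2. It had 2, 91, 3 and 0 fragments in control 1, control 2, knockout 1 and knockout 2, or 0.437, 24.0, 0.749 and 0 CPM. Control 2 was 32.1 times knockout 1 (exact 95% counting interval 10.6 to 158.4). Of its 26 exon entries 20 share coordinates with another transcript, so 6.51% of its exon bases could be counted and it did not pass the low-count filter.

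Keratinocyte markers moved with Serpinb3d and Serpinb5. Perp, a desmosome-associated protein and the most abundant of the markers, was at 226.6, 6580, 442.5 and 100.5 CPM in control 1, control 2, knockout 1 and knockout 2. Knockout 1, the other library with Serpinb3d fragments, had the second highest summed markers (2463 CPM, against 1666 in control 1). In knockout 2, 4 of the 12 markers were at 0 (Col17a1, Ivl, Dsp and Krtdap), but Col17a1 was also at 0 in control 1 and control 2. Klk7, an epidermal protease of desquamation, was at 22.1, 871.9, 26.2 and 7.33 CPM, and Spink5, which restrains the epidermal kallikreins, at 4.80, 138.1, 7.74 and 0 CPM. The part of keratinocyte RNA in the Serpinb values was not tested.

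**Figure D3:**
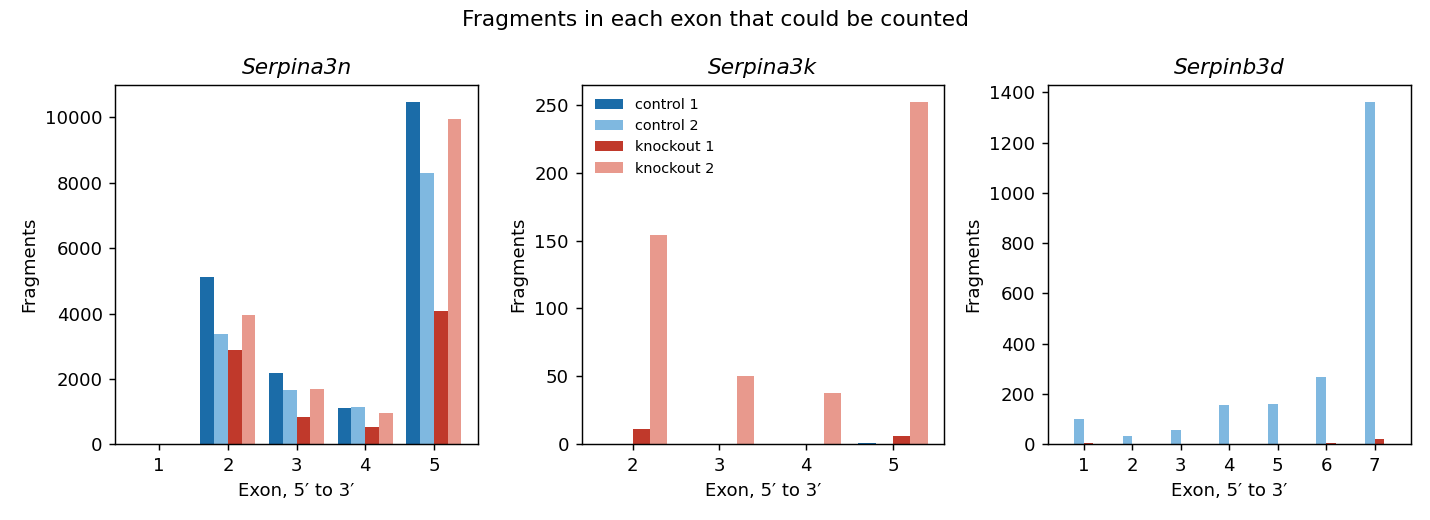
Fragments in each exon of Serpina3n, Serpina3k and Serpinb3d, 5′ to 3′, with bars for each of the 4 libraries (exon 1 of Serpina3k is shared with Serpina3m and held none). Serpina3n was read from exons 2 to 5 in all libraries, Serpina3k from exons 2 to 5 in knockout 2, and Serpinb3d from all 7 exons in control 2, with most fragments in the last exon.

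Serpinb2, plasminogen activator inhibitor 2, is induced in macrophages and keratinocytes by inflammation, and it was higher in both knockouts at a very low level. It had 6 and 5 fragments in control 1 and control 2 and 17 and 13 in knockout 1 and knockout 2, or 1.31, 1.32, 4.24 and 3.07 CPM. The groups did not overlap, as was so in this direction for 19.5% of the genes tested. Serpinb2 passed the low-count filter (minimum count 10) through the knockouts alone, so this order was fixed by the filter. The exact 95% counting intervals of the single libraries did overlap, at 0.481 to 2.85 CPM in control 1 and 1.64 to 5.26 in knockout 2. The pooled ratio was 2.77 (1.35 to 6.13), an interval that covers counting error only, and the log2 fold change was 1.46 ± 1.87. All of its fragments came from 2 exon entries at the 5′ end, and 6.39% of its exon bases could be counted.

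The plasminogen activators that Serpinb2 inhibits were measured at higher levels. Plau, urokinase, was at 18.1, 20.3, 47.9 and 26.7 CPM in control 1, control 2, knockout 1 and knockout 2, and both knockouts lay above both controls. Plat, the tissue-type activator, was at 212.0, 95.8, 106.1 and 124.6 CPM, with overlapping groups. Macrophage and monocyte markers were also higher in both knockouts, led by Lyz2 at 9378, 3876, 14350 and 10810 CPM, and their part in the Serpinb2 values was not tested.

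Serpinb9 and Serpinb6a, intracellular inhibitors that guard cells against granzyme B and cathepsin G, had almost no counted fragments. Serpinb9 had 2, 0, 3 and 0 fragments and Serpinb6a 0, 6, 0 and 0 in control 1, control 2, knockout 1 and knockout 2. Only 119 bases of Serpinb9 (3.41% of its exon bases) were covered by a single exon entry. For Serpinb6a 58 of 88 exon entries share coordinates with another, but 2355 bases (43.5%) were covered by a single entry. Its few fragments all lay in 1 entry, so shared entries alone do not describe its low count. With 0 fragments a level below 0.655 to 0.792 CPM (3 fragments, by library) could go unseen, so no difference was detectable for either gene at this depth. Gzmb, granzyme B itself, was at 182.9, 174.5, 134.0 and 35.5 CPM, lower in both knockouts.

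Per kilobase of exon bases that only a single entry covers, the order of mean levels over the 4 libraries was Serpina3n (1691 CPM per kb), Serping1 (382.3), Serpina3g (166.9), Serpinb3d (117.7), Serpinb5 (35.2), Serpinb2 (16.6), Serpina3k (15.2), Serpinb9 (2.49) and Serpinb6a (0.168). Serpina3n was above Serping1 in every library on this scale, at 1011 to 2000 against 198.1 to 506.1 CPM per kb. Serping1 was above Serpina3g in every library, although their ranges of 198.1 to 506.1 and 74.6 to 246.3 overlapped. The places of Serpinb3d, Serpinb5 and Serpina3k each rest on a single library, so their order against neighbours is not beyond their spread.

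Of the 9 genes, 6 passed the low-count filter (Serpina3n, Serpina3k, Serpina3g, Serpinb2, Serpinb3d and Serping1), and 0 of these 6 passed the adjusted threshold of 0.05 by edgeR's quasi-likelihood test, as was so for 0% of the 12434 genes. Unadjusted p was under 0.05 for 187 genes (1.5%). DESeq2 called 17 genes (0.137%), 1 of the 6 (Serpina3k) among them, and limma-voom 0 (0%). Without a low-count filter edgeR called 27 of 24651 genes (0.11%), and without knockout 1 it called 2 of 14692 (0.0136%), Serpinb3d among them in both. Nothing is read from these calls, since the genes were chosen on the same contrast. With 2 libraries per group, 3 of the 6 had a positive and 3 a negative log2 fold change. Serpina3k and Serpinb2 had both knockouts above both controls and Serping1 both below, beside the 19.5% and 11.2% of all genes. Serpina3k and Serpinb2 passed the low-count filter through the knockouts alone. The filter thus fixed their order, and nothing is read from it. Over all genes tested, log2 fold changes had a median of 0.20.

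**Figure D4:**
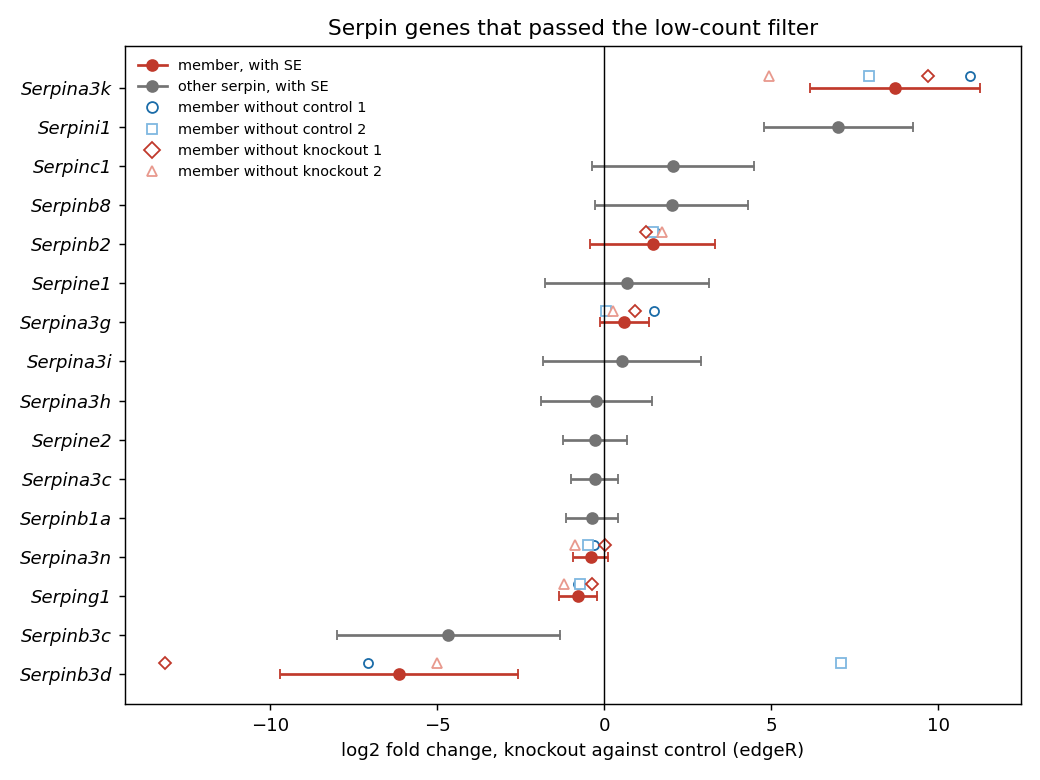
log2 fold change of knockout against control (edgeR, filled points) for the 16 serpin genes that passed the low-count filter, with bars for the derived standard error. Open symbols give the 6 described genes when 1 library is left out. With 1 library left out, Serpina3n ranged from -0.86 to 0.02, Serping1 from -1.21 to -0.36, Serpina3g from 0.07 to 1.5 and Serpinb3d from -13.13 to 7.10.

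The other serpins spread to both sides. Of 59 genes, 27 had a fragment and 10 passed the filter, with 5 positive and 5 negative log2 fold changes. Their median was 0.15, against 0.20 for all genes, and 3.85 without control 1, where that of all genes was 1.72. Serpine2, a thrombin inhibitor of the extracellular matrix with 27.1% of its fragments in retained introns, was at 294.0, 97.4, 62.9 and 262.4 CPM in control 1, control 2, knockout 1 and knockout 2. Serpinb1a, an inhibitor of neutrophil proteases, was at 140.4, 66.0, 93.4 and 66.7 CPM. Serpini1, neuroserpin, was named after its values were seen and had 1, 0, 82 and 70 fragments in the same order. Its pooled ratio of knockouts to controls was 154.5 (counting interval 27.3 to 6140), an interval that covers counting error only. Its log2 fold change was 7.01 ± 2.23 and was not called by edgeR. Its controls were each lower than its knockouts, an order found for 19.5% of the genes tested. For Serpini1 the low-count filter fixed this order, since the gene passed it through the knockouts alone. Since Serpini1 was picked on this contrast, its values are a description and carry no test.

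Of 24 serine proteases that serpins are known to inhibit, 14 could be tested, and 0 passed the threshold. The log2 fold change was positive for 5 and negative for 9, with a median of -0.34, and both knockouts lay above both controls for 4 and below for 3, beside 19.5% and 11.2% of all genes tested. The median was 0.48 without control 1, 0.07 without control 2 and 0.27 without knockout 1. The 4 with the highest levels were Masp1, C1ra, Klk7 and Plat, given above. Elane, neutrophil elastase, had 60 fragments in knockout 2 and 0 in the other libraries. Prtn3 and Ctsg, also neutrophil proteases, did not share this pattern. Prtn3 had 2, 0, 10 and 19 fragments and Ctsg 0, 0, 1 and 0 in control 1, control 2, knockout 1 and knockout 2. Tested genes that passed the low-count filter through a single group, Prtn3 among them, had their order fixed by it. Plau, Gzmb, C1s1, Elane, Prtn3 and Ctsg were named for their link to the serpins after their values were seen.

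Of 12 serine protease inhibitors outside the serpin family, 7 could be tested, 5 with a positive and 2 with a negative log2 fold change and a median of 0.89, and 0 passed the threshold. Wfdc21 was at 56.3, 68.4, 247.8 and 252.0 CPM in control 1, control 2, knockout 1 and knockout 2 (log2 fold change 2.00 ± 0.62). Wfdc17 was at 747.4, 495.7, 908.5 and 754.4 CPM, also higher in both knockouts, as was so for 2 of the 7 and for 19.5% of all genes tested. The 2 others named by level were Wfdc12, at 67.2, 24.0, 15.5 and 153.2 CPM, and Spink5. The list's median was 0.13 without either knockout and 0.23 without control 2.

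Neutrophil markers were low and uneven beside these protease and inhibitor values. The 12 markers summed to 406.0, 270.0, 1761 and 943.2 CPM in control 1, control 2, knockout 1 and knockout 2, led by Mmp8. S100a9 and Ly6g were at 0 in all libraries, but how much of their exons could be counted was not worked out. The part of the neutrophil markers in the Elane, Wfdc21 and Serpina3k values was not tested. Markers of natural killer cells, mast cells, dendritic cells and endothelium summed to 0 to 10.98, 164.2 to 367.8, 220.1 to 1493 and 6.60 to 79.9 CPM, led by Klrb1c, Hdc, Ccr7 and Flt1.

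For each gene, those outside the family with the most similar profile over the 4 libraries were found by the root-mean-square difference of centred log2 levels among 5191 named genes at a mean of at least 20 CPM. Serpina3n was closest to Hexim1 (0.033 log2 units), H2afv (0.054) and H2afx (0.056), Serping1 to Cnpy2 (0.047), Rpl27 (0.095) and Nsmce1 (0.098), and Serpina3g to Ndufb7 (0.060), Klf2 (0.065) and Zfp719 (0.070). Within 0.5 log2 units lay 1047 genes for Serpina3n, 834 for Serping1 and 784 for Serpina3g, so 4 libraries single out no partner. Serpinb2 was closest to Tnf (0.062), Hist4h4 (0.078) and Smox (0.100), with 455 genes within 0.5. Serpinb5 had 17 such genes, led by Klk13 (0.211), Irf2 (0.221) and Lgals7 (0.245). Serpinb2 had only 5 to 17 fragments per library, and its counting interval in control 1 alone was 0.481 to 2.85 CPM. Serpinb5 had 0 to 3 fragments outside control 2. Counting error is thus wider than these differences, and neither ranking is a measured likeness.

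The profiles of Serpinb3d and Serpina3k had no gene within 0.5 log2 units. The nearest to Serpinb3d were Il1f8 (0.642), Tnfaip8l3 (0.921) and Pinlyp (0.954), all at 0 CPM in control 1 and knockout 2 and at 111.7 to 192.4 CPM in control 2. Among the nearest to Serpina3k were Tpm3-rs7 (1.22) and Slc25a51 (1.46), with Tpm3-rs7 at 29.9, 9.77, 50.9 and 495.7 CPM in control 1, control 2, knockout 1 and knockout 2. Serpinb6a and Serpinb9 rest on too few fragments for such a comparison.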

How the data were processed

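The authors deposited raw fragment counts per annotated exon entry. The counter was featureCounts 2.0.1, per the file headers, run without strand on GRCm38 alignments against GENCODE M23, keeping non-chimeric fragments whose mates both aligned. Trim Galore 0.6.7 and STAR 2.7.9a appear as trimmer and aligner in the submitters' processing notes. Fragments overlapping more than 1 entry were not counted. Of 841606 entries, 545076 (64.8%) share coordinates with another and held 0 fragments, so alternative transcripts hide much of several serpin genes. A fragment that spans exons also overlaps more than 1 entry, so short exons can be undercounted even in genes with a single transcript. Levels of different genes, shares per exon and levels per kilobase thus compare only roughly.

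Entries were summed per gene and symbols matched for 55154 of 55335 identifiers. Knockout and control libraries were compared over 12434 genes with edgeR 4.0.16 (R 4.3.3): TMM factors, filterByExpr (minimum count 10), the two-sided quasi-likelihood test without covariates, and Benjamini-Hochberg adjustment at 0.05. Standard errors were derived as the absolute log2 fold change over the square root of the test's F statistic. They are rough where a group is near 0. Alternatives were DESeq2 1.42.0, voom in limma 3.58.1, other factors and filters, exons outside retained-intron transcripts (GENCODE M21), a Y-linked covariate and each library left out. The fits were tested on simulated data whose spread was set at a fixed value and not taken from these libraries. That test thus does not show how the fits perform at the spread seen here. Depth was 3614418 to 4537006 fragments per library.

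The genes and lists were chosen with earlier results of these data known. Besides the 9 genes, those named are the 4 tested genes with the highest mean in each serpin, protease and inhibitor list, the highest marker of each cell type, and the 3 most similar profiles per gene (pseudocount 0.5 CPM). For Serpina3k, 1 of these 3 is not reported here. Likest profiles left out predicted genes, clones and pseudogenes. No label states that the libraries came from separate mice, so spread between them may be technical. All pairs of libraries differed by more than counting noise (chi-square over its degrees of freedom, 40.1 to 164.1).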

Additional observations from a re-analysis of the deposited data

How the results depend on the processing

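Of the 6 tested genes, Serpina3g, Serpinb2 and Serping1 kept their direction and did not pass the threshold in any of the 13 alternatives (DESeq2 gave no adjusted p for Serpinb2). Serpina3k stayed positive in the 12 alternatives that could test it and passed the threshold by DESeq2 (log2 fold change 8.96). Serpinb3d passed without a low-count filter (-5.92). Leaving out single libraries, Serpinb3d lay between -13.13 and 7.10, passing without knockout 1 and reversing without control 2. Serpina3n lay between -0.86 and 0.02, reversing without knockout 1. The count of called genes, 0, became 17 by DESeq2 and 27 without a low-count filter, and lay between 0 and 4 with 1 library left out. List medians with 1 library left out lay between -0.68 and 3.85 for other serpins, -0.57 and 0.48 for proteases and 0.13 and 0.81 for other inhibitors, which had 0.06 without a low-count filter. The cause was not tested. The median of all genes was 0.09 to 0.26 under the scalings tried. No paired analysis was possible because the labels number no replicates and do not say what the numbers in the library titles stand for. At these depths, 5 or 6 fragments limit Serpinb9 and Serpinb6a.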
